A study of Mus musculus with 9 samples.

Results

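CHD7 peaks were examined in the regulatory domains of 45 genes of the BMP and TGF-beta pathway. The genes were a named list of 16 ligands, 12 receptors, 8 SMADs, 5 extracellular or membrane antagonists and 4 Id genes, out of 21911 protein-coding mouse genes that have a regulatory domain. The list does not hold every ligand of the pathway, and the counts of ligands are over the 16 named here. The domain core of a gene spanned 5 kb before and 1 kb after its transcription start site (TSS), and was extended on each side to the domain core of the next gene or to 1 Mb from the TSS. A peak belonged to a gene when the midpoint of the peak fell in that domain, so that a peak could belong to more than 1 gene. Of the 45 genes, 23 had at least 1 CHD7 peak. They held 39 distinct peaks out of 3761 in the whole list.

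The cells were cardiac progenitor (CP) cells, taken at day 5 while wild-type embryonic stem cells from C57BL6 mice were differentiating in culture towards cardiomyocytes. CHD7 is a chromatin remodeller. Its binding was mapped by CUT&RUN, in which an antibody directs a nuclease to the protein and the released DNA is sequenced. There were 9 libraries, namely 3 with anti-CHD7, 3 with IgG as the negative control and 3 of input, all from wild-type cells. The authors called peaks against IgG in each anti-CHD7 library and deposited 1 pooled list of the peaks that overlapped in at least 2 replicates. The list gives positions alone, with no read count or score, so the depth and the replicate error behind a peak are unknown, and the strength of binding could not be compared. The cells are an in vitro model of an early stage of cardiac commitment, and no expression value was used here to check the cell type.

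Ligands of the BMP and TGF-beta families bind a complex of type I and type II serine/threonine kinase receptors at the cell surface. The type I receptor then phosphorylates receptor-regulated SMADs, which join SMAD4, enter the nucleus and bind DNA together with other transcription factors. SMAD1, SMAD5 and SMAD9 mostly carry BMP signals, SMAD2 and SMAD3 mostly carry TGF-beta and activin signals, and SMAD6 and SMAD7 inhibit the pathway. Secreted antagonists such as Noggin trap ligands, and the Id genes are classic targets of BMP signalling. In the embryo the pathway takes part in the specification of mesoderm and heart progenitors and later in the formation of the valves and the outflow tract.

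The DNA under the peak nearest to the TSS of a member is shown for each role, as the reference sequence of the 200 bp around the midpoint of the peak. All are from GRCm38.p6 (mm10), plus strand, read 5′ to 3′. Capitals mark matches to the 8 motifs searched. These were the GATA motif AGATAA, the SMAD palindrome GTCTAGAC, the CAGA box AGCCAGAC, the GC-rich SMAD element GGCGCC, the TEAD motif GGAATG, the forkhead motif TGTTTAC, the T-box motif AGGTGTGA and the E-box CAGCTG, each on both strands. The first is at chr2:155947198-155947397, upstream of Gdf5, and is the peak closest to its member when 1 TSS is taken per gene. The Bmpr2 sequence, at chr1:59771416-59771615, is in intron 1 of the gene, as is the Smad1 sequence at chr8:79375624-79375823. The Grem1 sequence is at chr2:113785109-113785308 and the Id2 sequence at chr12:25138462-25138661, both upstream of the gene. The Gdf5, Bmpr2 and Smad1 windows held none of the 8 motifs, and the Grem1 and Id2 windows each held a single TEAD match.
Gdf5: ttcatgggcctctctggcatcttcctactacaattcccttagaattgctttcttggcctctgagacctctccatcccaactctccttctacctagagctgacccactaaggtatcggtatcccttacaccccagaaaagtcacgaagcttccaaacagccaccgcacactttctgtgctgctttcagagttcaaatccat
Bmpr2: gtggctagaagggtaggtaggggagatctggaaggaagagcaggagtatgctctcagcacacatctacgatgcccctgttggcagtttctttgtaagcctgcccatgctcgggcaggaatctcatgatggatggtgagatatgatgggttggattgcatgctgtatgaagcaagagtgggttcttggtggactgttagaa
Smad1, intron 1: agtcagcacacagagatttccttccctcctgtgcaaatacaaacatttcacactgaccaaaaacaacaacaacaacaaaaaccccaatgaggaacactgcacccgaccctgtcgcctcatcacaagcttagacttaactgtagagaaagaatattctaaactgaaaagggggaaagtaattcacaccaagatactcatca
Grem1: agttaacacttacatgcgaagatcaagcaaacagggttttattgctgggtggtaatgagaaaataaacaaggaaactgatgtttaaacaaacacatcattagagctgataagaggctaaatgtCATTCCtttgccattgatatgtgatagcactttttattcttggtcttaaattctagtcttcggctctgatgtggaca
Id2: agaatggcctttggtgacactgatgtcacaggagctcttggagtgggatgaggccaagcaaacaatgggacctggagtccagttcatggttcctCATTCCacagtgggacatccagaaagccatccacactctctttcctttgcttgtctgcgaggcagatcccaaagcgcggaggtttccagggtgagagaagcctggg

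Another 5 sequences were chosen after their values were seen, because they held several matches, the one GC element, or a place close to another TSS of the member. They have the same length, build and strand. The Bmp5 window, at chr9:75967953-75968152, held 2 GATA matches. The Bmp7 window, at chr2:172673082-172673281, held 4 E-boxes. The Eng window, at chr2:32655656-32655855, held the GC element. The window in intron 2 of Smad1, at chr8:79359126-79359325, held 2 GATA matches and a TEAD match. The window in intron 4 of Smad3, at chr9:63665475-63665674, held 2 E-boxes.
Bmp5: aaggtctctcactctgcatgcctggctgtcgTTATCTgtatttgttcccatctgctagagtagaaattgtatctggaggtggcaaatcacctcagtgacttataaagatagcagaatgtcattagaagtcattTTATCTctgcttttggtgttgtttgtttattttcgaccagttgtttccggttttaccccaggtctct
Bmp7: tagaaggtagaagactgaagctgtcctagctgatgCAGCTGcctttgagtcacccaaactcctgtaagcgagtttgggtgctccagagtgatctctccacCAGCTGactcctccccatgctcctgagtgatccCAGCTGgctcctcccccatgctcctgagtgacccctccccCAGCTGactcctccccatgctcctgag
Eng: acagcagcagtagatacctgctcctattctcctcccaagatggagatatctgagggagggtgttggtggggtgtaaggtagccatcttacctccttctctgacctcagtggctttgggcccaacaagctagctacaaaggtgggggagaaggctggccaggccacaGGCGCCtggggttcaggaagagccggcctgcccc
Smad1, intron 2: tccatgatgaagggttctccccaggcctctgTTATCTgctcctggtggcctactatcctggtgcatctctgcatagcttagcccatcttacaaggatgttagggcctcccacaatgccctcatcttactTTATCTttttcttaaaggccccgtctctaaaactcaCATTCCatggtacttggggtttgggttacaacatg
Smad3, intron 4: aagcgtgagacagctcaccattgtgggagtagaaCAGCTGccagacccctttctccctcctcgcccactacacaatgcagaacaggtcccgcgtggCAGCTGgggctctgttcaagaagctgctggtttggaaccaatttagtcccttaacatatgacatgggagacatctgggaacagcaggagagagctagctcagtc

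In all, 23 of the 45 members had at least 1 peak, or 51.1% with a Wilson 95% confidence interval of 37.0% to 65.0%, beside 22.7% of all genes. The intervals given here cover counting error alone, and the list was chosen with earlier results of these data known. Of the members, 12 had 2 or more peaks (26.7%), beside 5.88% of all genes, a share that is not matched for domain length. The member counts must be read against domain length, because the members had long domains. Their median domain was 321545 bp, against 90182 bp over all genes. If each member had a peak as often as all genes of its class of domain length, 14.7 members would have had one (32.6%). Summed over domains, there were 1.96 pairs of a gene and a peak per Mb in the members and 1.48 in all genes. A peak counts once for each domain that holds it, and these values are not matched for domain length.

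Within the classes of domain length the share of members lay above that of all genes each time, although the classes hold few members. The numbers of members expected were 0.444, 2.44, 6.1, 2.4 and 3.26, from the shortest class to the longest. Some of these are less than 1 gene below the number observed. Of the members with domains under 50 kb, 1 of 5 had a peak, beside 8.88% of genes of that class. From 50 to 200 kb it was 3 of 12, beside 20.3%. From 200 to 500 kb it was 10 of 15, beside 40.7%. From 500 kb to 1 Mb it was 3 of 5, beside 48.1%. At 1 Mb and over it was 6 of 8, beside 40.7%. The gap between members and genes was widest in the class of 1 Mb and over, where the members had a mean of 1.75 peaks and all genes 0.728. The gap was narrowest from 50 to 200 kb, where the means were 0.333 and 0.244. From the shortest class to the longest, 0, 1, 5, 2 and 4 members had 2 or more peaks. In the same order, 2 or more peaks were held by 0.438%, 3.36%, 12.6%, 22.9% and 18.6% of all genes. No test was made over the members.

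**Figure D1:**
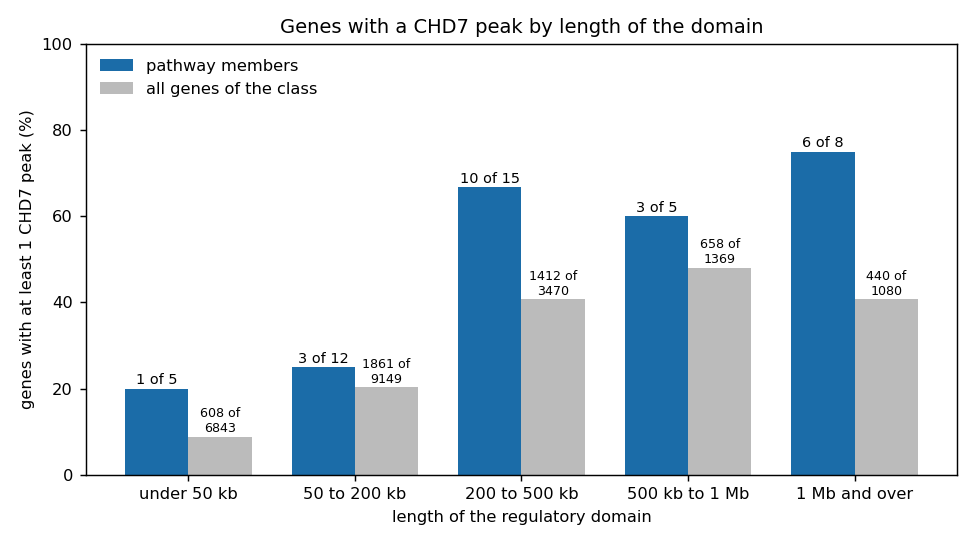
Percentage of genes with at least 1 CHD7 peak (y axis) in 5 classes of domain length (x axis), for the pathway members (blue) and all genes of the class (grey), with the counts above the bars. Members with a peak run from 1 of 5 under 50 kb to 6 of 8 at 1 Mb and over, and the share of all genes from 8.88% to 40.7% in the same classes.

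The peaks of the members lay far from their TSSs. Only Gdf5 had a peak within 5 kb of the TSS, which is 1 of 45 members (2.22%) beside 4.03% of all genes. The median distance over the 40 pairs of a member and a peak was 99.8 kb, with quartiles of 41.1 and 259 kb. Over the 6819 pairs of all genes the median was 57.4 kb, with quartiles of 16.6 and 150 kb. Pairs farther apart than 100 kb made up 20 of 40, beside 35.5% over all genes. These distances are bounded by the length of the domain, which was longer in the members. Of the 40 pairs 15 were upstream of the TSS, beside 2998 of 6819 over all genes.

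**Figure D2:**
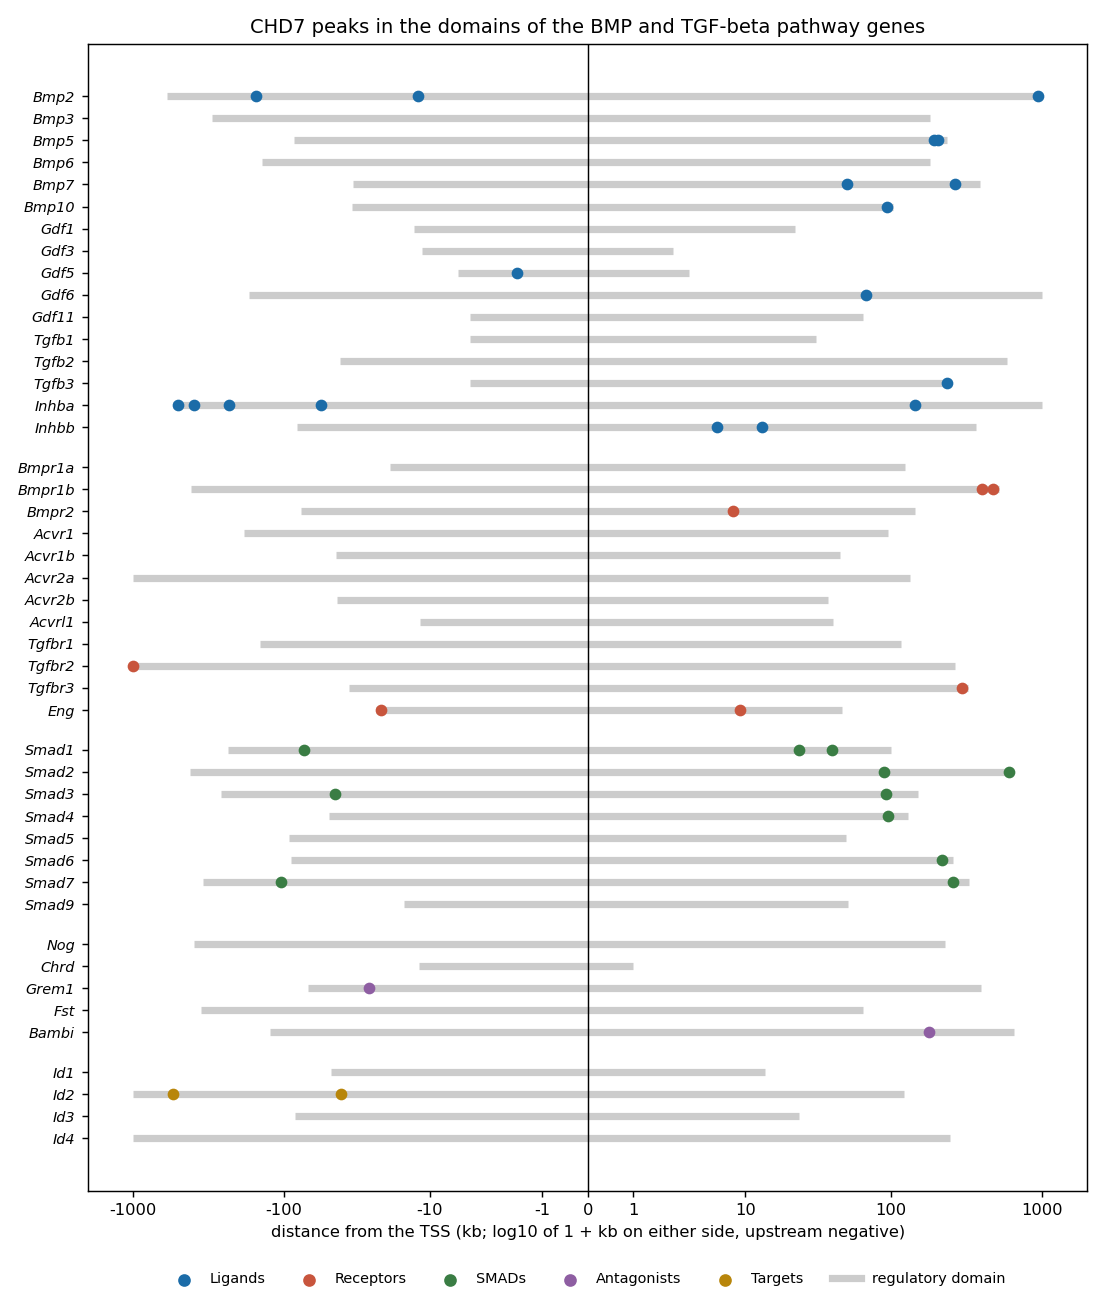
Distance of each CHD7 peak from the TSS in kb (x axis, log10 of 1 + kb on either side, upstream negative) for the 45 members (y axis, grouped by role), with the regulatory domain as a grey bar and each peak as a point. Gdf5 alone has a point within 5 kb of the TSS, Inhba has the most points with 5, and 22 members have none.

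As over all genes, most of these peaks were in the domain of more than 1 gene. This held for 36 of the 39 (92.3%), beside 81.5% of the peaks of all genes, and 35 were in the domain of a gene outside the list. The member had the nearest TSS in 22 of the 40 pairs (55.0%), the same share as over all genes (55.0%). For 15 members at least 1 peak had the TSS of the member as its nearest, and for the other 8 another gene was nearer to each peak. The list holds no measure of which gene a peak acts on.

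The ligands had the largest number of peaks. Of 16 ligands, 9 had at least 1 peak (56.2%, 33.2% to 76.9%), with 4.91 expected from genes of like domain length. Of these 9, 5 had 2 or more peaks. Together they held 18 peaks, or 2.4 per Mb of domain. The ligands with peaks were Bmp2, Bmp5, Bmp7, Bmp10, Gdf5, Gdf6, Tgfb3, Inhba and Inhbb, and those without were Bmp3, Bmp6, Gdf1, Gdf3, Gdf11, Tgfb1 and Tgfb2.

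Gdf5, a ligand best known for joint formation, had 1 peak of 1172 bp at chr2:155946712-155947883. Its midpoint lay 1.93 kb upstream of the TSS, and it was outside any other domain. The domain of Gdf5 was short, at 9830 bp. No other member with a domain under 50 kb had a peak.

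Inhba encodes the beta A subunit of activins and inhibins and had 5 peaks on chromosome 13, the most of any member. Over all genes 36 had 5 or more, and 14 of these had a domain of at least 1 Mb, as Inhba did. Upstream, the Inhba peaks lay at 507, 399, 234 and 56.8 kb, and downstream at 144 kb. Those at 507 and 399 kb were in introns of Gli3, a transcription factor of Hedgehog signalling whose TSS was nearer to both. The peak at 234 kb, at chr13:15777493-15779208, was intergenic and the widest among the ligands at 1716 bp. The peak at 56.8 kb was in an intron of the pseudogene B230303A05Rik. The downstream peak, at chr13:16155833-16156476, was intergenic and in no other domain. Neighbouring peaks were 108 to 201 kb apart, so the 5 peaks were spread over the locus.

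Bmp2, which is needed for heart and valve formation in the embryo, had 3 peaks on chromosome 2. Of these, 2 were intergenic and upstream, at 12.2 kb (chr2:133539586-133540425, 840 bp) and 154 kb (chr2:133397459-133398272, 814 bp), and Bmp2 had the nearest TSS for both. The third, of 1478 bp, was 948 kb downstream in an intron of Hao1, close to the end of the Bmp2 domain. The Hao1 TSS was 54.6 kb from it.

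**Figure D3:**
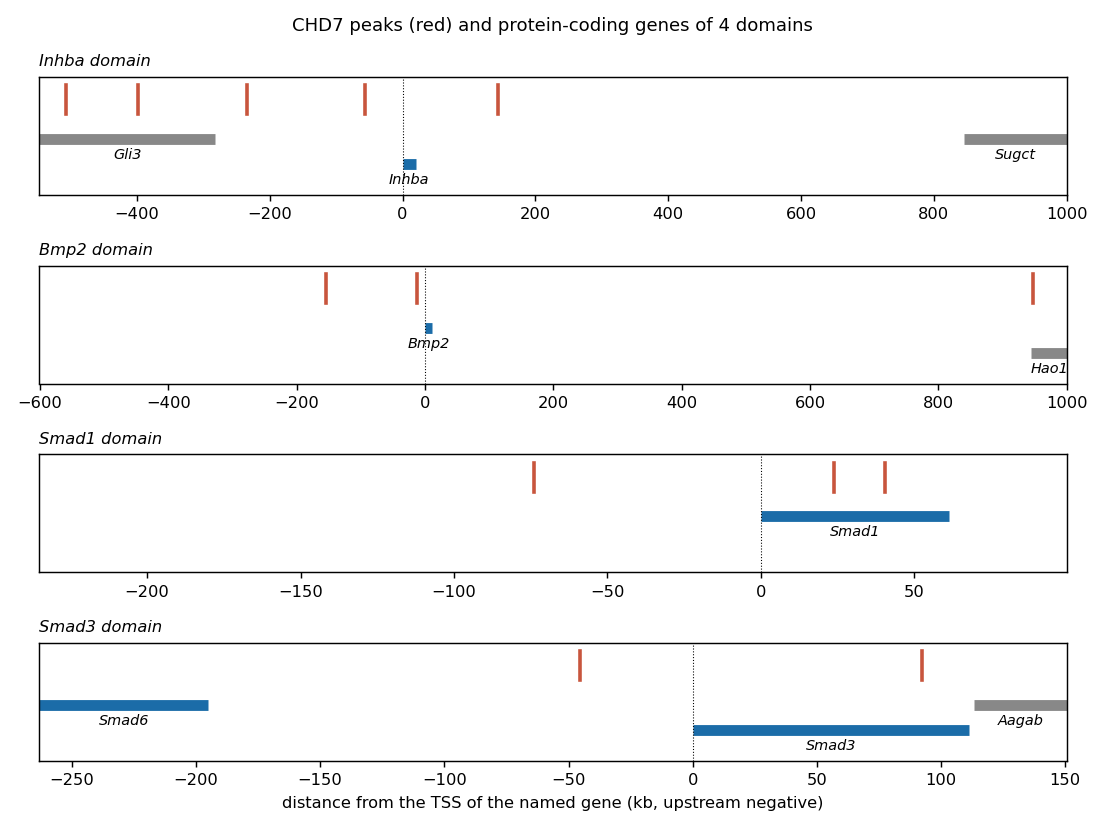
CHD7 peaks (red lines) and protein-coding genes (bars, members in blue and other genes in grey) over the domains of Inhba, Bmp2, Smad1 and Smad3, by distance in kb from the TSS of the named gene (x axis, upstream negative). The 5 Inhba peaks run from 507 kb upstream to 144 kb downstream, and 2 of the 3 Smad1 peaks lie inside the gene.

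Inhbb, which encodes the beta B subunit of activins, had 2 peaks 7.1 kb apart, the closest pair in any member domain. One was 6.13 kb downstream of the TSS at chr1:119415662-119416582, in the 3′ UTR of Inhbb itself, and the other was 13.2 kb downstream at chr1:119408491-119409552, past the end of the gene. Both were also in the domain of Gli2. Bmp5 likewise had a close pair, 12.1 kb apart, at 193 and 205 kb downstream and in an intron of the antisense gene Gm26903. The nearest TSS for both was that of Hmgcll1. Bmp7 had a peak of 502 bp in its own intron 3 of 6, 50.3 kb from the TSS, and an intergenic peak 267 kb downstream at chr2:172672908-172673456, for which Tfap2c was nearer.

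The remaining ligands with a peak had 1 each. Bmp10, a ligand of the developing heart that promotes growth of the trabeculae, had the narrowest member peak at 448 bp, 94.1 kb downstream at chr6:87522827-87523274 and in an intron of Arhgap25. The Gdf6 peak was intergenic, 68.0 kb downstream at chr4:9912073-9912604, and Gdf6 had the nearest TSS. The Tgfb3 peak was 235 kb downstream at chr12:85843562-85844381, inside Ttll5, where the annotation gives a UTR of a Ttll5 transcript.

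Among the 7 ligands without a peak, domain lengths ran from 13966 bp for Gdf3 to 626048 bp for Tgfb2. Tgfb1 came nearest to having one, with a peak 6.20 kb upstream of its TSS that fell just outside its 36086 bp domain. Gdf1 and Gdf3 had the nearest peak at 47.2 and 92.5 kb. For Bmp6, Tgfb2, Gdf11 and Bmp3 it lay at 140, 153, 218 and 450 kb.

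Of 12 receptors, 5 had at least 1 peak (41.7%, 19.3% to 68.0%), with 3.94 expected from domain length, and 2 had 2 peaks each. The 7 peaks made 7 pairs, or 1.43 pairs per Mb, beside 1.48 over all genes. These values are not matched for domain length, with median domains of 241263 bp in the receptors and 90182 bp over all genes. The receptors with a peak were Bmpr1b, Bmpr2, Tgfbr2 and the co-receptors Tgfbr3 and Eng.

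Bmpr2, the type II receptor for BMPs, had the peak nearest to its own TSS among the receptors. It was 8.12 kb downstream in intron 1 of 12, at chr1:59771132-59771899 (768 bp), and its sequence is printed above. Eng encodes endoglin, a co-receptor prominent in endothelium, and had 2 peaks within a domain of 70427 bp. One was in its own intron 1 of 14, 9.16 kb downstream at chr2:32655325-32656186 (862 bp). The other was 22.3 kb upstream in an intron of Ak1, 2.56 kb from the Ak1 TSS.

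Tgfbr3 encodes betaglycan, a co-receptor that binds TGF-beta ligands and inhibin, and had the widest of all member peaks at 1861 bp, which ranked 158 among the 3761. It was intergenic at chr5:106991489-106993349, 297 kb downstream of the TSS used and 141 kb from the TSS of another Tgfbr3 transcript. Cdc7 was the nearest gene, at 27.9 kb. A peak 38.0 kb upstream of Tgfbr3 was outside its domain. Bmpr1b, a type I receptor for BMPs, had peaks at 401 and 473 kb downstream, both in introns of Unc5c.

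The single peak of Tgfbr2, the type II receptor for TGF-beta, was 999 kb upstream at chr9:117173708-117174282, in an intron of Rbms3. No pair of any gene was farther apart, and the midpoint was 1365 bp inside the 1 Mb limit of the domain. The assignment of this peak to Tgfbr2 therefore rests on the limit chosen.

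The receptors without a peak were Bmpr1a, Acvr1, Acvr1b, Acvr2a, Acvr2b, Acvrl1 and Tgfbr1. They included Acvr2a, an activin type II receptor with a domain of 1134167 bp. Its nearest peak was 1108 kb away. For Bmpr1a, the type I receptor required for BMP signalling in heart progenitors, the nearest peak was 37.8 kb upstream and outside the domain. The others had their nearest peak at 265 kb (Acvr1b), 310 kb (Acvrl1), 360 kb (Acvr1), 438 kb (Acvr2b) and 572 kb (Tgfbr1).

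The SMADs had the highest share of members with a peak, at 6 of 8 (Wilson interval 40.9% to 92.9%), with 2.72 expected from domain length. They had 10 distinct peaks in 11 pairs, or 3.45 pairs per Mb. Of the receptor-regulated SMADs, Smad1, Smad2 and Smad3 had peaks and Smad5 and Smad9 had none. Smad4 and the inhibitory Smad6 and Smad7 had peaks as well.

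Smad1, a mediator of BMP signals, had 3 peaks on chromosome 8 and had the nearest TSS for each. They lay 73.9 kb upstream and intergenic (chr8:79473136-79473735), 23.8 kb downstream in intron 1 (chr8:79375366-79376081), and 40.3 kb downstream in intron 2 (chr8:79358976-79359475). The intron 2 peak was 2.55 kb from the start of a retained-intron transcript of Smad1. Smad3 had 2 peaks 138 kb apart. The downstream one, in intron 4 of 8 at chr9:63665307-63665843, was 92.4 kb from the TSS used and 0.972 kb from the start of another protein-coding transcript of Smad3. Only these 2 pairs and that of Gdf5 were within 3 kb of any TSS of their member.

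The upstream peak of Smad3 was the only peak in the domains of 2 members. It was intergenic at chr9:63803179-63803644 (466 bp), between Smad3 and Smad6, at 45.4 kb from the Smad3 TSS and 219 kb from the Smad6 TSS. It was the sole peak of Smad6, which had another peak outside its domain at 99.0 kb.

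On chromosome 18, which also holds Smad4 and Smad7, Smad2 had 2 intergenic peaks, 89.4 and 603 kb downstream. The second was the widest SMAD peak at 1162 bp and lay 12.1 kb from the TSS of Skor2, whose product represses transcription. The peak of Smad4, the partner of all receptor-regulated SMADs, was intergenic and 94.6 kb downstream, with Mex3c as the nearest gene. Smad7 had a peak 105 kb upstream in an intron of Dym and another 256 kb downstream in an intron of Ctif, and it had the nearest TSS for the first. Smad5 and Smad9 had their nearest peaks at 346 and 918 kb, and their domains were short for this group, at 142241 and 66282 bp.

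Of the 5 antagonists 2 had a peak (40.0%), with 1.86 expected from domain length. Grem1, a secreted BMP antagonist, had a peak of 485 bp 26.6 kb upstream at chr2:113784967-113785451, in an intron of Scg5. Bambi, a membrane pseudoreceptor on chromosome 18, had an intergenic peak of 601 bp at 178 kb downstream. Both members had the nearest TSS for their peak. Nog, Chrd and Fst had none, with domains of 621004, 13010 and 420001 bp and the nearest peaks at 347, 74.1 and 372 kb.

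Of the 4 Id genes, which encode helix-loop-helix proteins that block the binding of basic helix-loop-helix factors to DNA, only Id2 had a peak, with 1.22 expected. Id2 had 2 intergenic peaks upstream. One was 41.4 kb away at chr12:25138229-25138894 (666 bp) and in no other domain, and the other was 548 kb away and 1482 bp wide at chr12:25644483-25645964. Id1, Id3 and Id4 had their nearest peaks at 95.1, 111 and 486 kb. Id4 had none in spite of a domain of 1247342 bp. The number of members in these last groups is too small for their shares to be ordered, as the intervals of all roles overlap.

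The nearest peak of a gene was not always in its domain. Among the 23 members with a peak, 5 had a nearer one outside, and they were Bmp10, Tgfb3, Tgfbr2, Tgfbr3 and Smad6. Among the 22 without a peak, 6 had one within 100 kb of the TSS, and they were Tgfb1, Bmpr1a, Gdf1, Chrd, Gdf3 and Id1. The same shares over all genes are not given here. These counts therefore describe the members and do not set them apart from other genes.

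The member peaks, which are part of the whole list, were set beside it in width and base composition. Their median width was 681 bp (quartiles 543 and 908), against 703 bp (530 and 1054) over the peaks of all genes, and 19 of 39 were wider than the median of the list. Only 3 were among the widest 10% of peaks, the Tgfbr3 peak, the Inhba peak at 234 kb and the Id2 peak at 548 kb. The median GC content was 44.7% (33.0% to 58.6%), against 47.5%. Repeat-masked bases made up a median of 10.9% of the member peaks and 13.2% of the peaks of all genes. No member peak was masked over most of its length, as were 6.82% of the peaks of all genes.

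**Figure D4:**
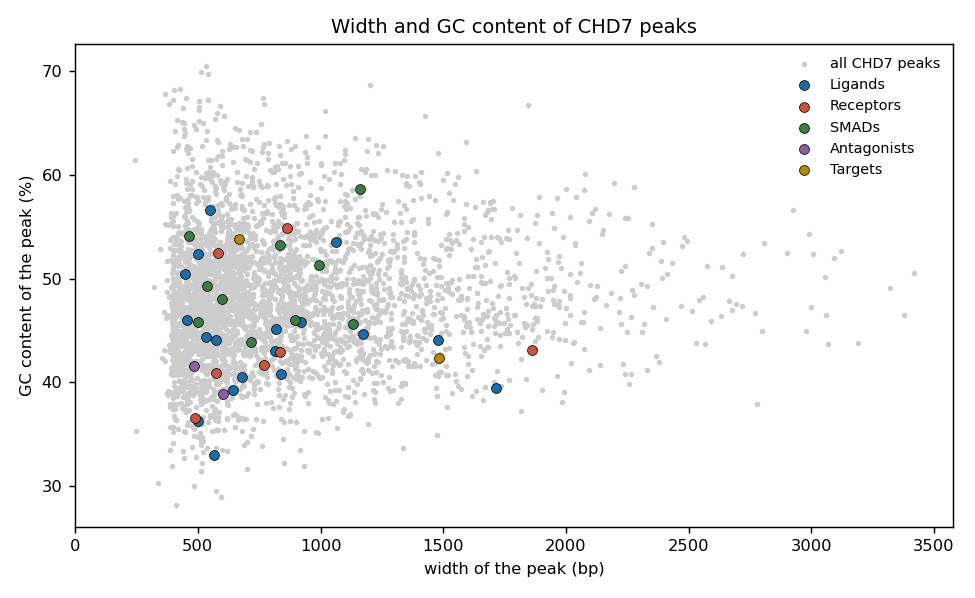
Width in bp (x axis) and GC content in percent (y axis) of the 3761 CHD7 peaks (grey) and of the 39 peaks in member domains (coloured by role). The member peaks, which are part of the list, run from 448 to 1861 bp and from 33.0% to 58.6% GC.

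By annotation, 17 of the 39 peaks were in introns of protein-coding genes (43.6%, beside 44.3% over the peaks of all genes) and 17 were intergenic (43.6%, beside 39.7%). A further 3 were in introns of noncoding genes (7.69%, beside 5.43%) and 2 in UTRs (5.13%, beside 4.74%). None was in coding sequence, beside 3.14% of the peaks of all genes, a small share against 39 peaks. Of the 40 pairs 7 were inside the member itself, in Bmp7, Inhbb, Bmpr2, Eng, Smad1 and Smad3. The share of such pairs over all genes is not given here.

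The motifs were counted in the 200 bp around the midpoint of each peak, beside the same windows of all 3761 peaks and the 200 bp before 32851 RefSeq gene starts (GRCm38.p6). The E-box was present in 9 of 39 member windows (23.1%, 12.6% to 38.3%), beside 11.6% of all peaks and 10.9% of promoters. The windows were in the domains of Bmp7, Bmp10, Inhba, Smad1, Smad2, Smad3, Smad4 and Smad6. The window of the Bmp7 peak at 267 kb downstream held 4 matches, as printed above, and that whole peak held 7. Some of the 4 lie in near copies of the same stretch of sequence. GATA and TEAD were present in 7 windows each (17.9%, 8.98% to 32.7%), beside 11.8% of all peaks for each, and 7.8% and 10.1% of promoters.

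GATA matches were in the domains of Bmp5, Bmp10, Inhba, Tgfbr3, Smad1 and Id2, and TEAD matches in those of Bmp2, Bmp5, Tgfbr2, Tgfbr3, Smad1, Grem1 and Id2. Both peaks of Bmp5 held GATA. The forkhead motif was in 2 windows (5.13%, 1.42% to 16.9%), those of Bmpr1b and Smad7, beside 3.11% of all peaks and 2.51% of promoters. Over the whole peak it was in 10.3% of member peaks, beside 12.2% of all peaks. The T-box motif was in no window, beside 0.718% of all peaks and 0.907% of promoters, shares too low for 39 windows to show a difference. Over the whole peak it was in 2 member peaks (5.13%), both in the Inhba domain, beside 4.44% of all peaks. For GATA and TEAD the interval of the member share covered the share of all peaks. For the E-box in these windows the lower end of the interval, 12.6%, was just above the 11.6% of all peaks. Over the whole peak the interval covered the share of all peaks. There, 19 of 39 member peaks held an E-box (48.7%, 33.9% to 63.8%), beside 37.9% of all peaks. The intervals are not adjusted for the 8 motifs, and the 39 peaks are themselves part of the list compared. No test was made over the 8 motifs.

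Elements bound by SMADs were rare at these peaks, as they were over the whole list. At least 1 of the 3 elements searched was in 2.56% of member windows, beside 3.51% of all peaks and 9.31% of promoters. The SMAD palindrome was in none of the 39 windows, beside 0.16% of all peaks and 0.107% of promoters, and the CAGA box also in none, beside 1.12% and 0.852%. The GC element was in 1 window, that of the Eng intron 1 peak (2.56%), beside 2.29% of all peaks and 8.43% of promoters. Over the whole peak 4 of 39 held one of the 3 elements (10.3%), beside 13.2% of all peaks. They were the CAGA box in a Bmp5 peak and the GC element in peaks of Eng, Smad1 and Smad2. A match is a stretch of letters and not a measured site, and the short core sequence that SMADs also bind was not searched.

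**Figure D5:**
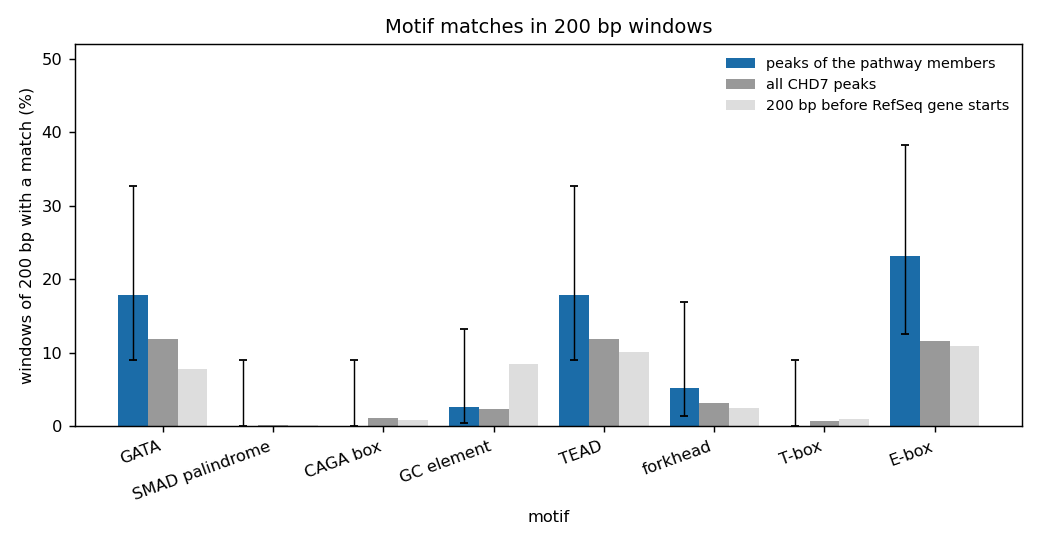
Percentage of 200 bp windows with at least 1 match (y axis) to each of 8 motifs (x axis), for the 39 member peaks (blue, with Wilson 95% confidence intervals), all 3761 CHD7 peaks (dark grey) and the windows before RefSeq gene starts (light grey). The E-box stands at 23.1% of member peaks beside 11.6% of all peaks, and the SMAD palindrome, CAGA box and T-box are at 0 in the member windows.

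Among 53 other genes of the pathway, 18 had a peak (34.0%), with 13.6 expected from domain length, and 8 had 2 or more, beside 22.7% and 5.88% of all genes. Their median domain was 118124 bp. Of these genes 4 had a peak within 5 kb of the TSS, beside 1 of 45 members and 4.03% of all genes. They were Cer1, a secreted antagonist of Nodal and BMPs (0.597 kb upstream), the Nodal co-receptors Cfc1 (1.26 kb downstream) and Tdgf1 (3.05 kb upstream), and Smurf1, a ubiquitin ligase for SMADs (1.92 kb downstream). The difference between the lists was not tested, and both were chosen with earlier results of these data known. Bmper, which binds BMPs, and Zfp423, a partner of SMADs, had 3 peaks each, the nearest at 489402 and 49955 bp. Msx1, a homeobox target of BMP signalling, and Rgma, a BMP co-receptor, had 2 each, as did Bmp8a, Bmp8b, Smurf1 and Tgif1. The others with a peak were Lefty1, Ltbp2, Skil, Twsg1, Fstl1, Msx2 and Thbs1, with 1 each.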

How the data were processed

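Per the labels and the methods of the study, reads were trimmed with fastp 0.20.1, aligned to mm10 with BWA 0.7.17.4 and deduplicated by unique molecular identifier, and peaks were called with MACS2 2.1.2 against IgG. The values deposited by the authors are positions in bp in 1 list that pools the 3 anti-CHD7 replicates, without a score or count. The calling threshold is not given in the sources used here. Reads and control libraries were not analysed here.

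Starts were read as counted from 0. Domains used 1 TSS per protein-coding gene of GENCODE M21, taken by APPRIS level and then spliced length. For expected numbers, the share of genes with a peak in 5 classes of domain length was summed over the members. The members and lists were chosen with earlier results of these data known. Every member is named, with fuller values for those with a peak within 5 kb or with 3 or more peaks, and for the nearest and the widest peak of each role. Genes outside the list are named where they share a peak or belong to the further pathway list, of which Hjv was matched by an older symbol. The functions were tested on simulated data. Python 3.11.15, pandas 2.3.3, scipy 1.17.1 and pysam 0.24.0 were used.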

Additional observations from a re-analysis of the deposited data

How the results depend on the processing

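The pooled list carries no replicate, depth or score, so no replicate could be left out, and shares over 39 peaks or 45 genes are imprecise. No paired analysis was possible because the list holds no column for a single library. Of 38 values recomputed under alternatives, 25 stayed within 1.5 times the count or within the interval and 13 did not. With the peaks wider than the median alone, 14 members had a peak, with 19 peaks in 19 pairs and 8.5 members expected. With the domain core alone (5 kb upstream, 1 kb downstream), 1 member had a peak, with 1 peak in 1 pair and 1.42 members expected. With each peak given to the single nearest gene, 15 members had a peak, with 22 peaks in 22 pairs and 9.48 expected. The number observed was thus above the number expected in the first and the last of these and below it with the core alone. Each of these rules leaves fewer peaks or pairs by construction. Searching the whole peak in place of 200 bp raised the GATA share to 38.5%, beside 36.8% of all peaks. The 5′-most TSS and any overlap of the peak both left 23 members, and a limit of 500 kb left 22, with Tgfbr2 lost. Other groupings of domain length gave 15.0 members expected in both cases.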
